A study of Mus musculus with 5 samples.

Results

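NF-kB is a family of dimeric transcription factors, and the genes described here encode its subunits and proteins classed as its inhibitors. The list held 10 genes: the subunits Nfkb1, Nfkb2, Rel, Rela and Relb and the inhibitors Nfkbia, Nfkbib, Nfkbie, Nfkbiz and Tnfaip3. They were chosen by name, and for each the probe set with 1 gene symbol and the highest mean was taken. Of the 10, 9 had such a probe set, 1 each, among 19938 genes so named, and all 9 were among the 6603 genes bright enough to be tested (a mean log2 intensity of at least 6). Nfkb1 has no probe set listed under its symbol in the annotation used and was not analysed here.

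Expression had been measured in CD45+ cells, the leukocytes, sorted by flow cytometry from the pancreas of 5 wild-type NOD females aged 10 weeks, with 1 array for each mouse. NOD mice develop autoimmune diabetes spontaneously as leukocytes invade the islets. No mouse was treated or carried an engineered allele per the labels, so the mice formed 1 group, and they differed by the T2 relaxation time of the pancreas on MRI. In mice 1 to 5 it was 35.3, 35.24, 32.77, 30.02 and 28.98 ms, a span of 6.32 ms. The labels do not say which T2 goes with more severe insulitis. The question was how NF-kB gene levels varied between these mice and with T2.

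In resting cells most NF-kB dimers are kept in the cytoplasm by IkB proteins. Signals from antigen, cytokine and Toll-like receptors activate the IkB kinase, IkB is phosphorylated and degraded, and the dimers enter the nucleus. Among the genes that they switch on are their own inhibitors, so the pathway shuts itself off. In leukocytes it drives lymphocyte survival, cytokine production and the maturation of antigen-presenting cells. These arrays measure transcripts only, and not the nuclear dimers themselves.

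Because NF-kB controls some of these genes itself, their promoters were examined. The κB consensus, the DNA sequence that NF-kB dimers bind, was searched on both strands in the 250 bases before each start site in RefSeq's promoter table (GRCm38.p6), which holds 7 of the 10 genes. A match stood in at least 1 window of 5 of these genes, Nfkb2, Rel, Nfkbia, Nfkbie and Tnfaip3, and in none of the windows of Rela and Nfkbib. Over all 27025 genes searched, 8.23% had a match in any window. The windows of these genes had 46.4% to 77.6% G and C, where the median over all windows was 52.4%, and some genes have several windows, 3 for Nfkb2 and 2 for Tnfaip3. A match is a description of the letters and says nothing of binding in these cells. The windows of 3 genes with a match are shown beside that of Nfkbib, which has no match, with matches in capitals. They are read 5′ to 3′ on the gene's own strand and end 1 base before the start site. Nfkbia lies at chr12:55492648-55492897 (minus strand), Tnfaip3 at chr10:19015411-19015660 (minus strand, the first of its windows in the table), Rel at chr11:23770970-23771219 (minus strand) and Nfkbib at chr7:28766645-28766894 (minus strand).
Nfkbia: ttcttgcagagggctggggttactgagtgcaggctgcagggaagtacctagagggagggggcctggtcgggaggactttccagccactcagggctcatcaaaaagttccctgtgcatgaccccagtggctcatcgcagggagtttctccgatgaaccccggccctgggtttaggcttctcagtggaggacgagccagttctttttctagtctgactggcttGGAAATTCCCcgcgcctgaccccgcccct
Tnfaip3: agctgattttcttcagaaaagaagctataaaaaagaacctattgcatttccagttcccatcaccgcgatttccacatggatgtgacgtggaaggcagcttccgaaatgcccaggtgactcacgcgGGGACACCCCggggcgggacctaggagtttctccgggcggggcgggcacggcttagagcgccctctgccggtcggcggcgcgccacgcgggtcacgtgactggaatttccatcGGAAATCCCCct
Rel: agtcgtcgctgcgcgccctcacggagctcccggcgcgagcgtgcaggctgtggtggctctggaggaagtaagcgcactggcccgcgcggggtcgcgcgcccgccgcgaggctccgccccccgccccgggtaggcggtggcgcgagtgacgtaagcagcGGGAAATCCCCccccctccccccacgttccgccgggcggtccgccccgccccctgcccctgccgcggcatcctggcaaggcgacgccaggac
Nfkbib: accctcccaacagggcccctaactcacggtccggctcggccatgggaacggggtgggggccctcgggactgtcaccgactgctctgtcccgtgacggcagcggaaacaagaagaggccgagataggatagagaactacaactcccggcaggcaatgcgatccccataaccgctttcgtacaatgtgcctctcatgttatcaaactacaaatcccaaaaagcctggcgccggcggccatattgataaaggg
In the Nfkbia window the match ends 20 bases before the start site. The Tnfaip3 window holds matches at 2 positions, and the capitals in the Rel window are 2 overlapping ones. Matches on both strands at 1 position, as the consensus is nearly a palindrome, were counted as 1 position.

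None of the 9 genes had a T2 slope that passed the test, and as a set they varied between the mice about as much as genes in general. A slope gives by how much log2 intensity changed for each ms of T2, from limma fitted over all 6603 genes with Benjamini-Hochberg adjustment. At an adjusted p under 0.05, 0 of the 9 genes and 0% of all genes tested were called, and at an unadjusted p under 0.05 the counts were 0 of 9 and 5.29% (349 genes). Adjusted p for the 9 genes lay between 0.828 and 1. Slopes were negative, with higher levels at lower T2, in 4 of the 9 genes and in 67.9% of all genes, a share that was 43.9% when the arrays were quantile normalized again. The median slope was 0.00018 over the 9 genes and -0.0074 over all genes tested. The SD over the mice ran from 0.060 to 0.27 log2 with a median of 0.10, where the median of all genes tested was 0.11. In 5 of the 9 genes the SD was below the median of all genes tested. Rel, Tnfaip3 and Nfkbiz varied most, with SDs above those of 91.3%, 88.9% and 79.8% of the genes tested, and Nfkbib least, above 27.1%.

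**Figure D1:**
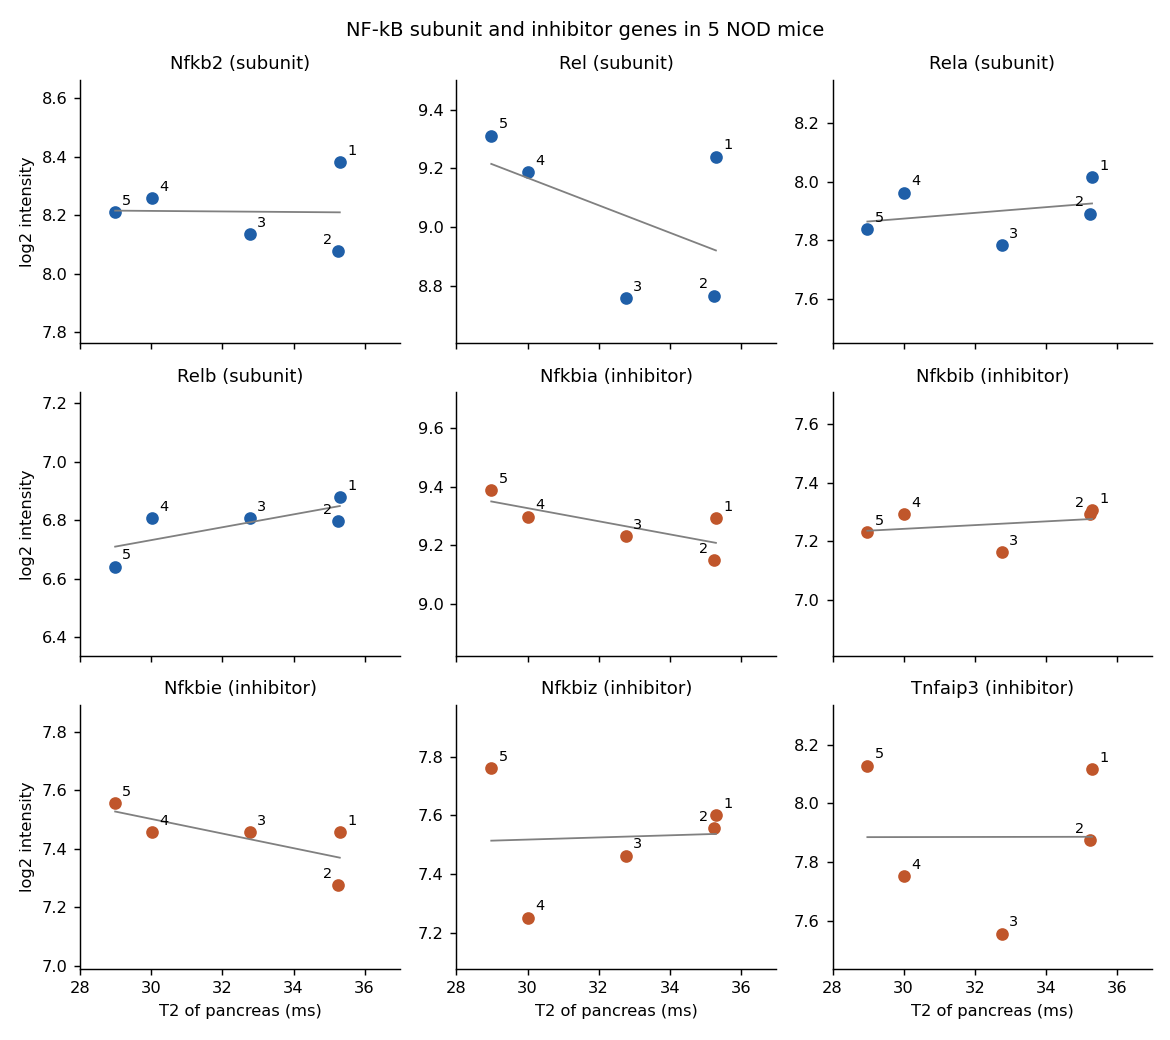
Log2 intensity of the 9 genes (vertical axis, each panel spanning the same height) against the T2 of the pancreas in ms (horizontal axis). Each point is 1 mouse with its number, and the grey line is the fitted slope. Rel, Nfkbiz and Tnfaip3 spread most around their lines, while Nfkbib and Rela have the narrowest ranges, 0.14 and 0.23 log2.

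Among the subunits, Rel differed most between mice and in a way that T2 did not order. Rel encodes c-Rel, a subunit most abundant in lymphocytes. Mice 1 to 5 had intensities of 605, 435, 433, 583 and 636. Mice 1, 4 and 5 were thus high and mice 2 and 3 low, with a fold of 1.47 from the lowest to the highest mouse. Mice 1 and 2, whose T2 is nearly the same, differed 1.39-fold. The slope was -0.047 ± 0.041 (SE, n = 5), a fitted fold of 1.23 from the highest to the lowest T2 (95% interval 0.743 to 2.03). Folds over T2 are given this way throughout, above 1 where the level is higher at low T2.

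The mean of the B cell marker genes was high and low in the same mice as Rel, and so were the means of some other lists. Of the 13 B cell genes listed, 11 had a probe set and all 11 passed the intensity filter. Their mean log2 intensity was 9.20, 8.32, 8.30, 8.92 and 8.89 in mice 1 to 5, so that mice 1, 4 and 5 were again above mice 2 and 3. The B cell gene Cd72 departed from this, at 6.62 in mouse 5 and 6.72 in mouse 2. The split was not particular to B cells. Acinar genes had means of 7.40, 6.50, 6.86, 6.92 and 7.11, and receptor adaptors of the pathway 7.19, 7.02, 7.04, 7.15 and 7.15. Most acinar genes past the filter departed from the split singly. Ctrb1, Cela1 and Try5 were higher in mouse 3 than in mouse 4, and Cela2a was equal in both. Cpa1 and Cpb1 had the split. The share of all genes with this split was not counted. The 11 T cell genes measured of 14 had means of 8.21, 9.06, 8.63, 8.67 and 8.51, lowest in mouse 1 and highest in mouse 2. No marker was at 0, since the lowest intensity on any array was 2.87. The part of these cell types in the level of Rel was not tested. In such bulk RNA, fewer cells of a type and less RNA per cell cannot be told apart.

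Nfkb2 encodes the precursor that is cleaved into the partner of RelB. It read 333, 270, 281, 306 and 296 in mice 1 to 5. Mouse 1 was highest and mouse 2 lowest, so the pair of nearly equal T2 spanned the whole range, a fold of 1.23. The slope was -0.00092 ± 0.021, and the fitted fold 1.00 (0.778 to 1.30).

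Rela encodes the subunit with the main activation domain of the classical dimer. It read 259, 237, 220, 250 and 229 in mice 1 to 5, highest in mouse 1 and lowest in mouse 3. The slope was 0.0098 ± 0.016 and the fitted fold 0.958 (0.787 to 1.17). Relb, which acts in the alternative pathway downstream of lymphotoxin and CD40, read 118, 111, 112, 112 and 99.9. Mice 2, 3 and 4 lay together, the values of mice 3 and 4 being equal, with mouse 1 above and mouse 5 below them. With a slope of 0.022 ± 0.011 and a fold of 0.908 (0.794 to 1.04), Relb did not pass (limma adjusted p = 0.828). Its slope was 0.0062 without mouse 5 and 0.0084 with array weights.

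Of the inhibitors, Nfkbia and Nfkbie were lowest in mouse 2 and highest in mouse 5, and their slopes were negative without passing the test. Nfkbia encodes IkBα, which NF-kB itself induces within minutes and which strips the dimers from DNA. Mice 1 to 5 had intensities of 628, 568, 601, 630 and 670. The values of the mice differed by at most 1.18-fold. The slope was -0.022 ± 0.011 (SE, n = 5), with a fitted fold of 1.10 (0.963 to 1.26; limma adjusted p = 0.828).

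Nfkbie encodes IkBε, a slower feedback inhibitor. It read 176 in each of mice 1, 3 and 4, 155 in mouse 2 and 188 in mouse 5. The values of those 3 arrays were equal to the last digit deposited. Such equal values on 3 or more arrays were found in 38.2% of the genes tested. Its slope was -0.025 ± 0.013 and its fitted fold 1.12 (0.951 to 1.31; limma adjusted p = 0.828).

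The mean of the genes of immediate early and dissociation stress was also lowest in mouse 2 and highest in mouse 5, though not each of its genes was. This list of genes induced by tissue handling or by rapid signalling had 19 of 21 genes past the filter, with means of 7.99, 7.87, 8.04, 8.14 and 8.46 log2 in mice 1 to 5. Slopes were negative in 17 of the 19 (67.9% of all genes, or 43.9% with renormalized arrays), 5 of them at an unadjusted p under 0.05 (5.29% of all genes) and 0 at an adjusted p under 0.05, with a median slope of -0.039. The heat shock gene Hspa1a read 102, 150, 291, 477 and 693, the co-chaperone gene Dnajb1 171, 253, 253, 349 and 412, and Dusp1, a phosphatase of stress kinases, 840, 800, 1115, 1060 and 1536. Of these, Dusp1 was lowest in mouse 2 and the other two in mouse 1. Hspa1a ran from lowest to highest in the reverse order of T2, with a fitted fold of 5.38 (3.28 to 8.82; limma adjusted p = 0.264). Hspa1a and Dnajb1 were named because their T2 slopes were the largest of the list relative to the SE. Their order by T2 is thus no separate evidence. The macrophage markers had higher values at low T2 as well: of 14 genes listed 10 passed the filter, all 10 slopes were negative, 8 of them at an unadjusted p under 0.05 and 0 at an adjusted p, and the list mean had a slope of -0.18 ± 0.017. The macrophage mean was lowest in mouse 2 too, at 8.337 log2 beside 8.343 in mouse 1, and highest in mouse 5, at 9.42. The mean of the IkB kinase and upstream kinases had the same extremes, at 7.50 and 7.63. Neither the part of handling nor that of macrophages in the levels of Nfkbia and Nfkbie was tested.

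**Figure D2:**
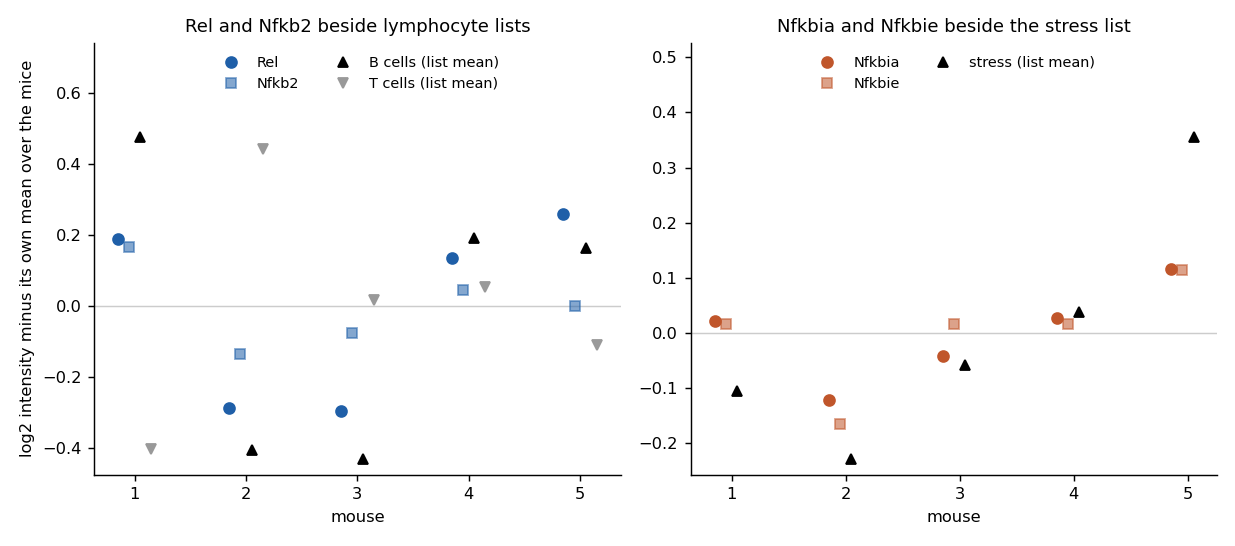
Log2 intensity minus its own mean over the 5 mice (vertical axis) for each mouse (horizontal axis). On the left Rel and Nfkb2 are set beside the mean of 11 B cell and 11 T cell genes, with Rel and the B cell mean above 0 in mice 1, 4 and 5. On the right Nfkbia and Nfkbie are set beside the mean of 19 stress genes, all 3 lowest in mouse 2 and highest in mouse 5.

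Nfkbib was the steadiest of the 9 genes. It encodes IkBβ, an inhibitor that is degraded more slowly and is not a strong target of the feedback. Its intensity was 158, 157, 143, 157 and 150 in mice 1 to 5. All mice lay within 1.10-fold, with mouse 3 lowest and equal values in mice 2 and 4. The slope was 0.0064 ± 0.011 and the fitted fold 0.973 (0.854 to 1.11).

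Nfkbiz and Tnfaip3 had wider spreads and slopes near 0. Nfkbiz encodes IkBζ, a nuclear protein of the IkB family that helps to switch on secondary response genes such as Lcn2. It read 194, 188, 176, 152 and 217 in mice 1 to 5. The lowest and the highest value came from mice 4 and 5, which are neighbours in T2, with a fold of 1.43 between them. The slope was 0.0036 ± 0.033 and the fitted fold 0.984 (0.655 to 1.48).

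Tnfaip3 encodes a ubiquitin-editing enzyme that disarms signalling upstream of the IkB kinase. Mice 1 to 5 read 278, 235, 188, 216 and 280. The mice at the ends of the T2 range, 1 and 5, were alike and high, and mouse 3, in the middle, was lowest. The fold from the lowest to the highest mouse, 1.49, was the widest of the 9 genes. The slope was 0.00018 ± 0.043 and the fitted fold 0.999, with a 95% interval of 0.589 to 1.70 that leaves room for changes in both directions.

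Markers of neutrophils and macrophages are given beside Nfkbiz and Tnfaip3. The 7 neutrophil genes past the filter of 11 had means of 7.43, 6.98, 8.77, 6.72 and 7.97 log2 in mice 1 to 5. Nfkbiz and the mean of this list were both lowest in mouse 4, while the list was highest in mouse 3, where Tnfaip3 was lowest. Of its genes, Mmp9 and Csf3r were lowest in mouse 2 instead. The list also holds Lcn2, named above as a gene that IkBζ helps to switch on. The 10 macrophage genes past the filter had means of 8.34, 8.34, 8.94, 9.39 and 9.42. Whether these cells shaped either gene was not tested.

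Mice 1 and 2 had almost the same T2 and different levels. Mouse 1 was above mouse 2 in all 9 genes, by 0.014 log2 for Nfkbib to 0.47 for Rel, and in 45.2% of all genes tested. In 7 of the 9 genes, and in 44.6% of all genes tested, this gap was wider than the change fitted over the whole T2 range. The exceptions were Relb, with a gap of 0.082 and a fitted change of 0.14, and Nfkbib, with 0.014 and 0.040. With 1 array for each mouse these gaps have no replicate check.

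The slopes moved with the mouse left out. Without mouse 1, 7 of the 9 genes and 69.2% of all genes had negative slopes. At an unadjusted p under 0.05 there were 4 of the 9 genes and 9.98% of all genes, and none passed over all genes. These were Nfkb2 at -0.026 ± 0.0076 (SE, n = 4; limma adjusted p = 0.493), Rel at -0.094 ± 0.023 (adjusted p = 0.485), Nfkbia at -0.035 ± 0.0061 (adjusted p = 0.422) and Nfkbie at -0.038 ± 0.011 (adjusted p = 0.490). Without mouse 5, 1 of the 9 genes, Nfkbiz, reached that threshold, as did 4.31% of all genes, with a slope of 0.061 ± 0.0072 (limma adjusted p = 0.670). Without mouse 4 it was Relb, at 0.031 ± 0.0090 (limma adjusted p = 0.606), and 8.01% of all genes.

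**Figure D3:**
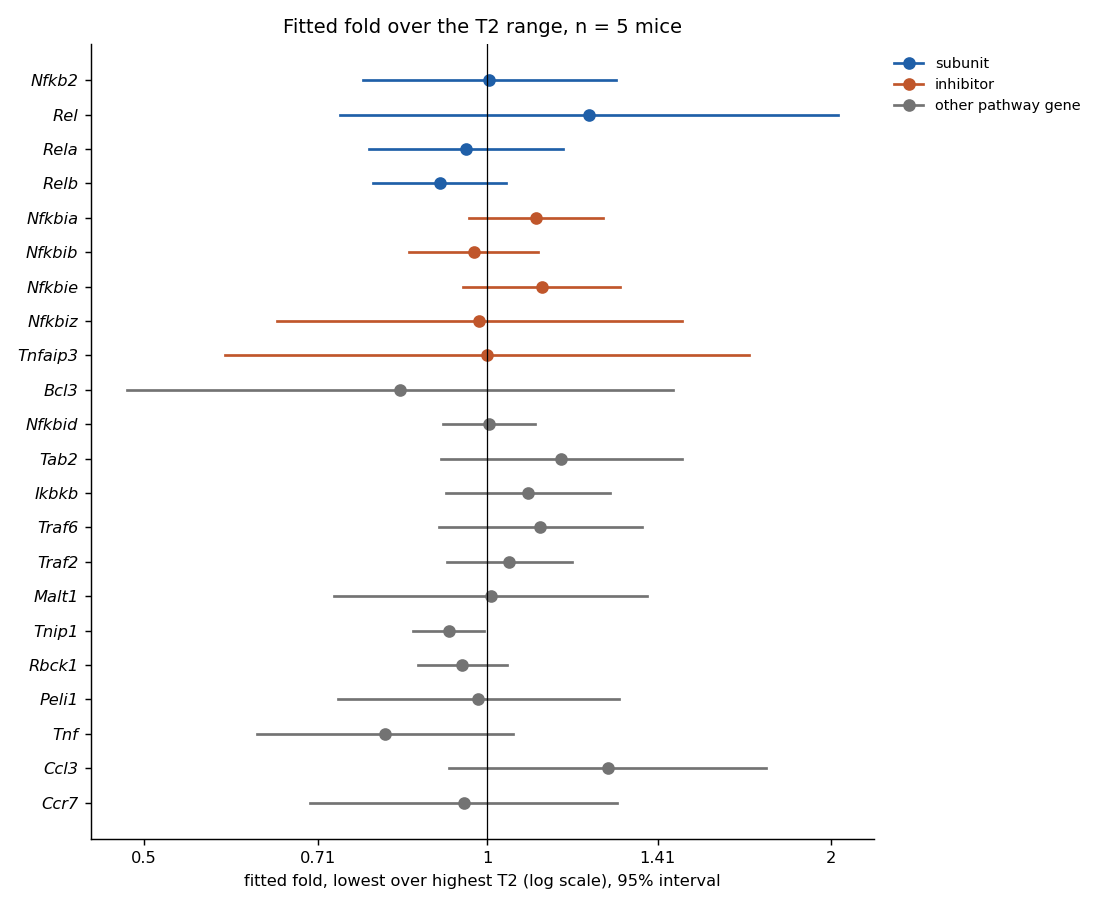
Fitted ratio of the level at the lowest T2 to that at the highest (horizontal axis, log scale, above 1 where the level is higher at low T2) with its 95% interval for the 9 genes and for 13 other genes of the pathway. All 9 intervals of the subunits and inhibitors include 1, and the widest are those of Tnfaip3 and Rel.

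Set against each other, the subunits and the inhibitors that NF-kB induces had no difference in slope beyond its standard error. The mean of the 4 subunit genes had a slope of -0.0040 ± 0.022 and that of the 4 induced inhibitors, Nfkbia, Nfkbie, Nfkbiz and Tnfaip3, -0.011 ± 0.024 (SE, n = 5). The inhibitor mean minus the subunit mean had a slope of -0.0069 ± 0.023. Relative to its own mean over the mice, this difference was -0.055, 0.038, 0.012, -0.16 and 0.16 in mice 1 to 5. The extremes were mice 4 and 5, which differ little in T2: in mouse 4 the inhibitor mean was low for its subunits, and in mouse 5 it was high. In mouse 4 Nfkbiz and Tnfaip3 lay at -0.28 and -0.13 from their own means, while Nfkbia and Nfkbie lay slightly above theirs. Nfkbiz is counted as an inhibitor here although its protein also helps to switch on genes. Without mouse 5 the slope of the difference was 0.026 ± 0.017, and without mouse 4 it was -0.027 ± 0.011. Leaving out mouse 5 turned its sign, and leaving out mouse 4 or any of the others did not. A filter of 7, which drops Relb, turned it too, at 0.0018 ± 0.024.

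**Figure D4:**
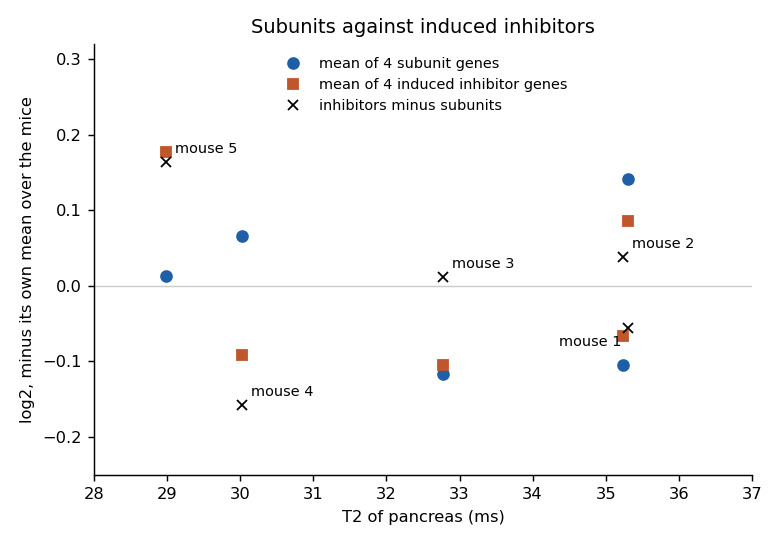
Mean log2 intensity of the 4 subunit genes, of the 4 induced inhibitor genes and their difference, each minus its own mean over the mice (vertical axis), against T2 in ms (horizontal axis). The difference is lowest in mouse 4 (-0.16) and highest in mouse 5 (0.16).

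No other gene of the pathway passed the test either: of the 43 other genes of the pathway lists that passed the intensity filter, 0 passed over all genes. Of 7 genes of the IkB kinase and upstream kinases, 5 had negative slopes, a share near the 67.9% of all genes, with a median of -0.013. Tab2, an adaptor of the kinase TAK1, read 520, 426, 519, 514 and 563 in mice 1 to 5, and Ikbkb, the main catalytic kinase subunit, 313, 273, 291, 313 and 317. Both were lowest in mouse 2 and highest in mouse 5, as Nfkbia and Nfkbie were. They were named because their T2 slopes were the largest of their list relative to the SE. Umps and Ddhd1, outside the pathway lists, had the same lowest and highest mouse. They were picked for their likeness to Nfkbia over the 5 arrays, so this is no separate evidence. The share of all genes with this pattern was not counted. The slopes of Tab2 and Ikbkb were -0.034 ± 0.020 and -0.019 ± 0.013.

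Receptor adaptors had negative slopes in 8 of 11 genes, also near the share of all genes, with a median of -0.0017. The ubiquitin ligase gene Traf6 read 135, 119, 119, 138 and 140, with mice 2 and 3 low as for Rel. Traf2, an adaptor of tumour necrosis factor receptors, had 1 value, 123, in 4 mice and 135 in mouse 4. Malt1, a protease of antigen receptor signalling, read 449, 436, 353, 437 and 442, with mouse 3 apart from the others.

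Among 10 genes of linear ubiquitin ligases, deubiquitinating enzymes and their partners, 6 slopes were negative, against 67.9% of all genes. Tnip1, a partner of the Tnfaip3 protein, was the 1 gene of the group at an unadjusted p under 0.05, and it did not pass over all genes. It read 148, 144, 140, 140 and 133 in mice 1 to 5, a slope of 0.018 ± 0.0057 (limma adjusted p = 0.828). Rbck1, of the linear ubiquitin ligase, read 216, 217, 216, 216 and 201. Peli1, a ubiquitin ligase of Toll-like receptor signalling, read 680, 841, 669, 738 and 738.

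The other nuclear IkB proteins varied differently. Bcl3, which binds homodimers of the DNA-binding subunits, read 179, 124, 153, 156 and 110, highest in mouse 1 and lowest in mouse 5, with a slope of 0.040 ± 0.045. Nfkbid read 88.1 in 4 mice and 83.0 in mouse 3.

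Of 30 target genes listed, 27 had a probe set and 13 were past the filter. Among these 13, 7 had negative slopes, against 67.9% of all genes, and none passed. Their median slope was -0.0017. The mean of the 13 stayed between 7.64 and 7.69 log2 over the mice, with a slope of -0.0059 ± 0.0025 (SE, n = 5). Tnf, the cytokine, read 137, 110, 108, 106 and 97.6, with mouse 1 above the others and mouse 5 lowest, and had a slope of 0.047 ± 0.021. Ccl3, a chemokine of macrophages and T cells, read 163, 188, 227, 238 and 210 and had a slope of -0.055 ± 0.026. Ccr7, the receptor that guides lymphocytes and dendritic cells to lymphoid tissue, read 549, 602, 456, 549 and 540. Both Tnf and Ccl3 had a limma adjusted p of 0.828.

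The genes whose mean-centred log2 values lay nearest to those of Rel over the 5 arrays were Lmbrd1, Rnf216, Hsp90b1, Plekha2 and Prkcb, among the 6603 tested. Their root mean square difference from Rel was 0.020, 0.049, 0.059, 0.060 and 0.062 log2. Prkcb, which encodes a protein kinase C, lay 0.28 above its mean in mouse 1 and 0.31 below it in mouse 2. Those nearest to Nfkbia were Umps, Ddhd1, Tpm3, Osbpl9 and Rufy1, at 0.012 to 0.017 log2. With 5 arrays such likeness is a description of these mice.

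As a check of the sort, Ptprc, which encodes CD45, had a log2 intensity of 11.06 ± 0.10 (SD, n = 5). Islet endocrine and fibroblast markers had no gene past the filter, with means of 4.14 and 4.37 log2 over 8 and 7 genes, and 6 of the 9 acinar genes measured passed it, with means from 6.50 in mouse 2 to 7.40 in mouse 1. Pearson's r across probe sets lay between 0.980 and 0.989 for the pairs of arrays.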

How the data were processed

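The authors deposited 1 intensity per probe set and array, on a linear scale, after RMA (background correction, quantile normalization and a summary over probes) with Affymetrix Power Tools, according to the submitters' processing notes. Tool versions and build: not given in the sources used here. Intensities were transformed to log2. Of 35556 probe sets, GEO's annotation of the platform gives 1 symbol for 21789 and several for 1621, and 12146 are unnamed here. The number of arrays limits the precision.

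T2 was the covariate of a linear model of log2 intensity (lmFit, eBayes; limma 3.58.1, R 4.3.3), tested on both sides with 3 residual degrees of freedom. The 6603 genes whose log2 mean reached 6 entered the adjustment, and the threshold was 0.05. The fit was tested on simulated data. P-values reflect how far 5 separate mice scatter about the line. Sample numbers run from high to low T2, so effects of handling order, if it followed them, cannot be told apart from those of T2. No batch is given. Slopes of list means are least-squares slopes, with no p.

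The genes and lists were chosen with earlier results of these data known. Genes named were the 9 measured, in each other list the 2 of largest moderated t and the brightest, and the 5 genes nearest to Nfkbia and to Rel. Alternatives were no filter or a filter of 7, arrays quantile normalized again or centred, probe sets averaged, ranks of T2, other variance models, array weights, removal of genes with equal values and each mouse left out. Counting Nfkbib among the induced inhibitors and leaving Rel out of the subunits were chosen after seeing the data. The slope of inhibitors minus subunits was -0.0034 ± 0.020 with Nfkbib and -0.021 ± 0.026 without Rel.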

Additional observations from a re-analysis of the deposited data

Results flagged for a closer look

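In the 9 genes, the other pathway genes named and the list means, 43 sets of 5 values in all, 1 mouse stood apart from the other 4 in 5 sets, as judged by its distance to the closest other mouse divided by the full range (above 0.71). For independent normal values without ties, chance alone gives about 1 in 20. That rate does not apply here, since some sets hold equal values and the list means include genes also judged singly. None of the 9 subunit and inhibitor genes was among the 5 sets. Malt1 was lowest in mouse 3, at 8.46 log2 against 8.77 to 8.81 in the others (share 0.876). The mean of the linear ubiquitin ligases and deubiquitinating enzymes was lowest in the same mouse, at 7.54 against 7.71 to 7.73 (0.882). Rbck1 was lowest in mouse 5, at 7.65 against 7.76 in the others (0.973), and had the same value on 3 arrays. Nfkbid in mouse 3 and Traf2 in mouse 4 had a share of 1, because the other 4 arrays held 1 equal value.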

How the results depend on the processing

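None of the 9 genes passed over all genes under any of the 10 other settings or with any mouse left out, and the lowest adjusted p was 0.422, for Nfkbia without mouse 1. The slopes of Rel, Relb, Nfkbia, Nfkbib and Nfkbie kept their sign in every setting that gave them a value. Of 88 slopes under other settings 4 changed sign: Nfkb2 with arrays quantile normalized again (0.011) and on ranks of T2 (0.0099), Nfkbiz on ranks (-0.0012) and Rela with array weights (-0.0036). Of 45 slopes with a mouse left out 7 changed sign, and the ranges were -0.026 to 0.018 for Nfkb2, -0.0035 to 0.020 for Rela, -0.027 to 0.061 for Nfkbiz and -0.034 to 0.057 for Tnfaip3. The number of genes with negative slopes among the 9 ranged from 3 to 7 with a mouse left out, and the slope of inhibitors minus subunits from -0.027 to 0.026. Over all genes 0 passed, and 3 passed with an intensity filter of 7, 4 with renormalized arrays, 4 with array weights and 35 without genes of equal values, which removes Nfkbie. A filter of 7 removes Relb, and the slope of inhibitors minus subunits was then 0.0018. With a mouse left out, 0 genes passed in each case. The difference between inhibitors and subunits has no value for the variance models, array weights, absence of a filter and equal values. The causes of these changes were not tested.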
